A study of Mus musculus with 6 samples.

Results

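The TGF-beta ligand, receptor and SMAD genes were described in CD4+ CD25+ T cells, which carry the surface markers of regulatory T (Treg) cells, from the spleens of mice with and without Keap1. The set holds 10 genes chosen by name, namely the ligand gene Tgfb1, the receptor genes Tgfbr1, Tgfbr2 and Tgfbr3, the SMAD genes Smad2, Smad3, Smad4 and Smad7, and the SMAD corepressor genes Ski and Skil. All 10 were found by symbol, each on 1 transcript cluster (the array's unit for a gene) shared with no other symbol, and all 10 are among the 16825 genes tested. Itgae, a gene induced by TGF-beta, was set beside them on each array.

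Keap1_KO stands for 3 arrays (B, C and D) of cells labelled Keap1 -/-, from mice that carry VAVcre and floxed Keap1 alleles, and WT stands for 3 arrays (A, D and F) of cells labelled Keap1 +/+. Vav-driven Cre acts in blood-forming cells, so Keap1 is targeted in the other blood lineages of the same mice as well as in T cells. The sources used here do not say whether the WT mice carried Cre or floxed alleles. All mice were untreated, male and of C57BL/6 background, and cells were taken from the spleen by magnetic separation. Sample characteristics give an age of 10 to 12 months and the growth protocol gives 6 to 10 weeks. The labels write CD4+, whereas the series title writes CD4-. The design text calls the triplicates independent but does not tie each array to a mouse of its own, and the p-values measure only the spread between these samples, which may be technical. Keap1 itself was dim, reading 4.87, 4.89 and 4.70 on the 3 Keap1_KO arrays, against 5.30, 5.41 and 5.77 on the WT arrays, on the deposited log2 scale, and whether its probes lie in the floxed part of the gene is not known here. T cell transcripts were bright on all arrays, with Il2ra, the CD25 gene used for the isolation, between 13.60 and 14.19, whereas Foxp3, the defining Treg gene, was not tested because its cluster carries several symbols. The T cell receptor complex gene Cd3e read 15.04, 16.01 and 16.19 on Keap1_KO B, C and D, against 14.30, 15.27 and 14.80 on WT A, D and F. Cd3e, Cd4 and Cd3d thus had overlapping arrays with higher means in Keap1_KO (differences of 0.96, 1.04 and 0.94, limma adjusted p = 0.476, 0.476 and 0.498). Cd3g, Ctla4, Il2ra and Ikzf2 overlapped too, with smaller differences of 0.28, 0.081, -0.046 and -0.11. The median of these 7 T cell markers was 0.28, beside 0.061 over all genes tested. Their part in the members' differences was not tested.

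TGF-beta is secreted in a latent form and, once released, binds the type II receptor (gene Tgfbr2), which recruits and phosphorylates the type I receptor (Tgfbr1). The type I receptor phosphorylates SMAD2 and SMAD3, which join SMAD4 and act on genes in the nucleus, while SMAD7 blocks the receptor and SKI and SKIL hold SMAD complexes in a repressed state. In T cells the pathway is known for the induction of Foxp3, for the restraint of effector responses and for the induction of Itgae, which encodes the alpha chain of the integrin CD103. Much of its control lies in ligand release and protein phosphorylation, which an expression array does not measure.

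Promoter sequence is shown for 4 members: Tgfb1 and Smad3, whose values were all higher on the Keap1_KO arrays, and Tgfbr1 and Tgfbr2, whose values overlapped between the groups and whose windows hold a match to the core of the antioxidant response element, the motif of NRF2, the factor that KEAP1 restrains. Each window is the 250 bases before the gene's start (for Tgfbr1 the upstream one of the 2 listed), 5′ to 3′ on the gene's strand, from RefSeq on GRCm38.p6, and capitals mark motif matches. The windows are chr7:25686752-25687001 (+ strand) for Tgfb1, chr9:63757995-63758244 (- strand) for Smad3, chr4:47352972-47353221 (+ strand) for Tgfbr1 and chr9:116175364-116175613 (- strand) for Tgfbr2.
Tgfb1: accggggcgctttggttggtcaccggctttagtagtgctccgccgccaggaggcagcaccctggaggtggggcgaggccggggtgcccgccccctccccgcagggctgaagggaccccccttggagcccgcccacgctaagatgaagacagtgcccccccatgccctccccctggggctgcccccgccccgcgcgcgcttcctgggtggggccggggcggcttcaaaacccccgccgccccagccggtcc
Smad3: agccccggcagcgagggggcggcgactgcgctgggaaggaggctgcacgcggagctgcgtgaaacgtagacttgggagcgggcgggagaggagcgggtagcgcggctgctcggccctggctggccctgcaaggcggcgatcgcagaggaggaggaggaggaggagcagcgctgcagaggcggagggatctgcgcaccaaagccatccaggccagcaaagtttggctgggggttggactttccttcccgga
Tgfbr1: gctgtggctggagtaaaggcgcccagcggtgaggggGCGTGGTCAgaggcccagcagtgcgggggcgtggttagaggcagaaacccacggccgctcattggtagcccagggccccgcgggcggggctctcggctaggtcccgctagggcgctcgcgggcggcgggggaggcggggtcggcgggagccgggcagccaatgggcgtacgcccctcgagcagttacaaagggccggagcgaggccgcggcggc
Tgfbr2: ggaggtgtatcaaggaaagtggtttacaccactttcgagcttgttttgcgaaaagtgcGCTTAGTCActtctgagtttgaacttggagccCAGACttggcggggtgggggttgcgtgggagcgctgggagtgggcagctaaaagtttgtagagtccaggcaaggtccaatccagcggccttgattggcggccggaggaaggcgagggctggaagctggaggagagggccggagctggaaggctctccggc

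Motifs were searched on both strands as TGACNNNGC for the antioxidant response element core, CAGAC for the SMAD box and GTCTAGAC for the palindromic SMAD element, and no matches overlapped in these windows. TGACNNNGC occurred in 10.2% of 32851 windows of the same length, CAGAC in 42.2% and GTCTAGAC in 0.167%. The Tgfbr1 window held 1 match to TGACNNNGC, on the opposite strand, 214 to 206 bases before the start (GCGTGGTCA). The Tgfbr2 window held 1 such match at 192 to 184 bases (GCTTAGTCA), also on the opposite strand, and 1 CAGAC at 160 to 156 bases. The second Tgfbr1 window, not printed, held 1 CAGAC and neither of the others. The Tgfb1 and Smad3 windows held none of the 3 motifs. Their GC contents were 75.2% for Tgfb1, 69.2% for Smad3, 74.8% for Tgfbr1 and 58.4% for Tgfbr2, against a median of 52.4% over all windows. Of the other members, Ski has a window in the table (87.6% GC, none of the 3 motifs), and Tgfbr3, Smad2, Smad4, Smad7 and Skil are named only.

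Across the set, 3 genes had no overlap between the groups. Tgfb1 and Smad3 read higher on every Keap1_KO array than on every WT array, and Tgfbr3 read lower. Over all 16825 genes tested, 14.1% had groups that did not overlap, 9.11% with all Keap1_KO arrays above all WT arrays and 4.96% with all below. By limma with Benjamini-Hochberg adjustment over all genes tested, 0 members passed an adjusted p under 0.05, and 0.0% of all genes did (0 members and 3.38% of all genes without Keap1_KO B). At an unadjusted limma p under 0.05, 2 of 10 members were called (Smad3 and Tgfbr3), beside 10.3% of all genes. The members' median difference, Keap1_KO minus WT, was 0.004 on the log2 scale, beside 0.061 over all genes tested, and 5 of 10 had a higher mean in Keap1_KO, beside 56.5% of all genes (6 of 10 when array medians were subtracted, where Smad4 turned, and 3 of 10 with array weights or without WT D). All 10 members lay above the median of every array, and the smallest margin was 1.26 log2 units, for Tgfbr3 on Keap1_KO C. In bulk cells, fewer cells of a type and less RNA per cell cannot be told apart.

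**Figure D1:**
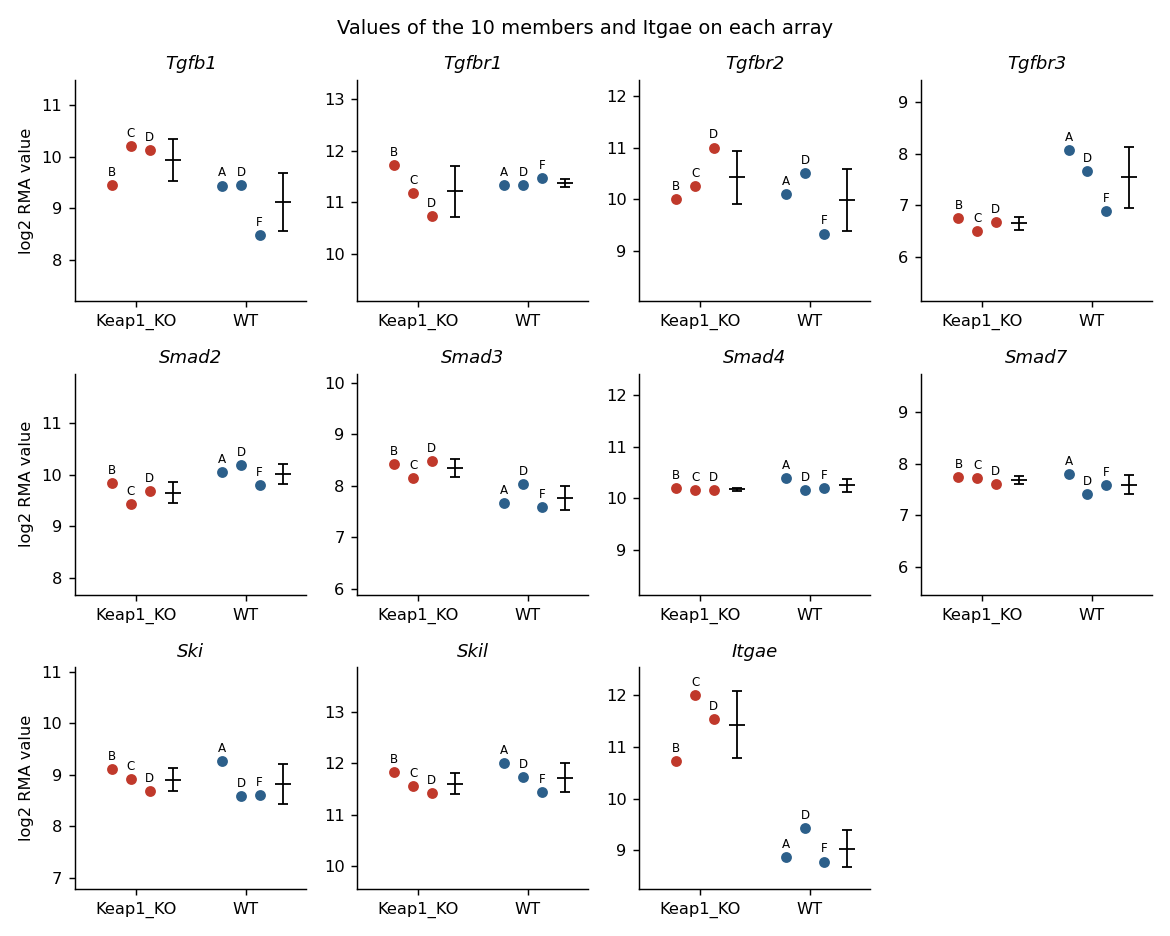
Deposited log2 RMA values (vertical axis, of equal span in every panel) of the 10 members and Itgae on the 3 Keap1_KO arrays (left, red, B, C and D) and the 3 WT arrays (right, blue, A, D and F); points are arrays, and the bars beside them are mean ± SD, n = 3. Tgfb1, Smad3 and Itgae lie higher on all Keap1_KO arrays, Tgfbr3 lies lower, and the other 7 genes overlap.

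Tgfb1 (Entrez Gene 21803) encodes the main TGF-beta ligand of T cells. It read 9.46, 10.21 and 10.14 on Keap1_KO B, C and D, against 9.44, 9.45 and 8.48 on WT A, D and F. Keap1_KO C and D were high, WT F was low, and Keap1_KO B exceeded the highest WT array by only 0.015, so the absence of overlap rests on a near tie. The means were 9.94 ± 0.41 in Keap1_KO and 9.12 ± 0.56 in WT (SD, n = 3 each), a difference of 0.81 (SE 0.35, 1.76-fold). The two-sided exact permutation test gave p = 0.1, its minimum with 3 arrays a group, and the limma adjusted p was 0.476. Without WT F the difference was 0.49.

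Tgfbr1 (Entrez Gene 21812), the type I receptor kinase gene, read 11.71, 11.18 and 10.73 on Keap1_KO B, C and D, against 11.32, 11.34 and 11.46 on WT A, D and F. The WT arrays lay close together (SD 0.073) between the highest and the second Keap1_KO array, whereas the Keap1_KO arrays spread over 0.98. The difference was -0.17 with a 95% interval from -0.81 to 0.48 (limma adjusted p = 0.783), and its sign turned to 0.072 without Keap1_KO D.

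Tgfbr2 (Entrez Gene 21813), the type II receptor kinase gene, read 10.01, 10.27 and 11.01 on Keap1_KO B, C and D, against 10.11, 10.51 and 9.34 on WT A, D and F. Keap1_KO D was the highest and WT F the lowest array, and the other 4 interleaved. The difference was 0.44 (95% interval -0.49 to 1.37, limma adjusted p = 0.615), and it was 0.12 without WT F, 0.15 without Keap1_KO D and 0.71 without WT D.

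Tgfbr3 (Entrez Gene 21814) encodes betaglycan, a co-receptor without kinase activity that presents ligand to the type II receptor. It read 6.75, 6.50 and 6.68 on Keap1_KO B, C and D, against 8.06, 7.66 and 6.89 on WT A, D and F. The Keap1_KO arrays lay close together (SD 0.125) and the WT arrays spread over 1.17, with WT F only 0.14 above Keap1_KO B. The means were 6.64 ± 0.13 in Keap1_KO and 7.54 ± 0.59 in WT (SD, n = 3 each), a difference of -0.89 (SE 0.31, 1.86-fold lower). The exact two-sided permutation p was 0.1 and the limma adjusted p 0.476 (0.0262 before adjustment). With limma array weights, which give the arrays unequal influence, the difference was -1.26 and the adjusted p 0.0414. In that fit 11.2% of all genes passed, and over all 13 alternatives the adjusted p of Tgfbr3 ranged from 0.0414 to 0.9.

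Smad2 and Smad3 encode the SMADs that the TGF-beta type I receptor phosphorylates. Smad3 (Entrez Gene 17127) read 8.42, 8.16 and 8.47 on Keap1_KO B, C and D, against 7.67, 8.03 and 7.58 on WT A, D and F. The lowest Keap1_KO array, C, lay 0.12 above the highest WT array, D. The means were 8.35 ± 0.17 in Keap1_KO and 7.76 ± 0.24 in WT (SD, n = 3 each), a difference of 0.59 (SE 0.19, 1.5-fold), with a limma adjusted p of 0.476 (0.0212 before adjustment) and an exact two-sided permutation p of 0.1. Leaving out each array in turn gave differences from 0.50 to 0.73. Smad2 (Entrez Gene 17126) read 9.84, 9.44 and 9.69 on Keap1_KO B, C and D, against 10.05, 10.19 and 9.81 on WT A, D and F. WT A and D were above every Keap1_KO array, and WT F lay 0.025 below Keap1_KO B. The difference was -0.36 (95% interval -0.82 to 0.093, limma adjusted p = 0.494).

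Smad4 (Entrez Gene 17128), the shared partner of phosphorylated SMADs, was the least variable member on the Keap1_KO arrays. It read 10.20, 10.15 and 10.16 on Keap1_KO B, C and D, against 10.39, 10.16 and 10.19 on WT A, D and F. The difference was -0.075 with a 95% interval from -0.44 to 0.29 (limma adjusted p = 0.829), and it was 0.037 when array medians were subtracted.

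The feedback inhibitor and the corepressors overlapped between the groups. Smad7 (Entrez Gene 17131), itself induced by TGF-beta, read 7.75, 7.72 and 7.61 on Keap1_KO B, C and D, against 7.80, 7.41 and 7.59 on WT A, D and F. All Keap1_KO values of Smad7 thus lay within the WT range, and the difference was 0.093 (95% interval -0.32 to 0.50, limma adjusted p = 0.809). Ski (Entrez Gene 20481), a SMAD corepressor gene, read 9.12, 8.92 and 8.68 on Keap1_KO B, C and D, against 9.27, 8.59 and 8.61 on WT A, D and F. Its difference was 0.082 (95% interval -0.51 to 0.68, limma adjusted p = 0.890), with every Keap1_KO value inside the WT range. Skil (Entrez Gene 20482), the SKI relative known as SnoN and a TGF-beta target, read 11.83, 11.56 and 11.42 on Keap1_KO B, C and D, against 12.00, 11.73 and 11.43 on WT A, D and F. Its difference was -0.12 (95% interval -0.64 to 0.39, limma adjusted p = 0.802). With array weights the differences of Smad7 and Ski were -0.036 and -0.25, and without WT A that of Skil was 0.019, so no direction is given for these genes.

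**Figure D2:**
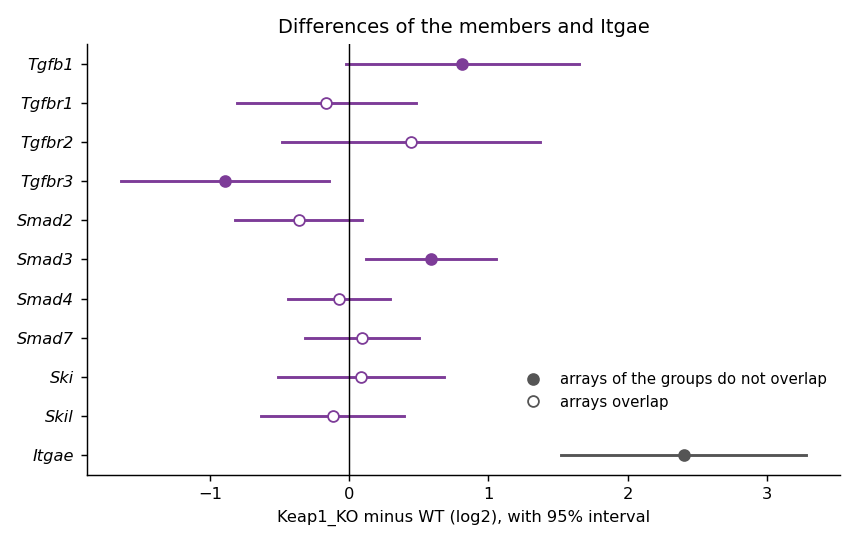
Keap1_KO minus WT difference (horizontal axis, log2) of the 10 members and Itgae, with the unadjusted 95% interval of the limma fit; filled points mark genes whose arrays do not overlap between the groups (n = 3 each). The intervals of Smad3, Tgfbr3 and Itgae lie on 1 side of 0, that of Tgfb1 reaches -0.021, and the others span 0.

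Itgae (Entrez Gene 16407) was compared with the members array by array, as deviations of each gene from its own mean over the 6 arrays. Itgae deviated by 0.50, 1.79 and 1.32 on Keap1_KO B, C and D, against -1.36, -0.80 and -1.45 on WT A, D and F. The groups were 1.30 apart at their nearest arrays, with a difference of 2.40 (SE 0.37, 5.29-fold, limma adjusted p = 0.476, exact two-sided permutation p = 0.1). Like Itgae, Tgfb1 was highest on Keap1_KO C and D and lowest on WT F, with Keap1_KO B, WT D and WT A nearly tied in between, at deviations of -0.069, 0.68 and 0.61 on Keap1_KO B, C and D, against -0.086, -0.084 and -1.05 on WT A, D and F. Smad3 separated the groups too, but Keap1_KO C, the array highest in Itgae, was the lowest of its Keap1_KO arrays (deviation 0.099). Keap1_KO C was also the array lowest in Tgfbr3 (-0.59), Smad2 (-0.40) and Smad4 (-0.058). Outside the set, the T cell markers Cd4, Cd3d and Cd3g were, like Tgfb1, highest on Keap1_KO C and D and lowest on WT F. Cd3e was highest on the same arrays but lowest on WT A. Ctla4 was highest on WT F and Ikzf2 on Keap1_KO B, and Il2ra was lowest on Keap1_KO D.

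The TGF-beta-induced members Smad7 and Skil did not share the order of Itgae. Both were highest on WT A, where Itgae stood at -1.36, with deviations of 0.15 for Smad7 and 0.34 for Skil. Ski was highest on WT A too (0.41), and Smad7 and Ski ordered all 6 arrays alike. Skil was lowest on Keap1_KO D (-0.24), where Itgae stood at 1.32. The number of members above their own mean was 5 of 10 on Keap1_KO B, 5 on Keap1_KO C and 3 on Keap1_KO D, against 7 on WT A, 5 on WT D and 1 on WT F. WT F was thus below the gene's mean in 9 of 10 members, with Tgfbr1 (0.17) the exception. The share over all genes was not computed, and the T cell markers, outside the set, also had their lowest mean deviation on WT F (-0.37).

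**Figure D3:**
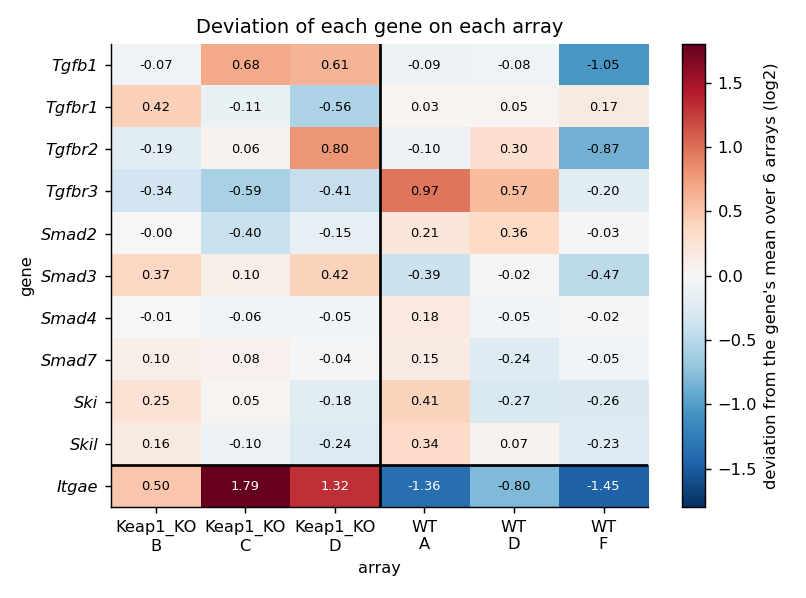
Deviation (colour and printed value, log2) of each gene (rows) from its own mean over the 6 arrays (columns, 3 Keap1_KO left of 3 WT). The Itgae row at the bottom is positive on all Keap1_KO arrays and negative on all WT arrays, Tgfb1 is likewise highest on Keap1_KO C and D and lowest on WT F, and Smad7, Ski and Skil peak on WT A.

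Among genes tested, the profile over the 6 arrays most like that of Smad3, the member with the largest moderated t, was that of Dand5 (Pearson r = 0.997 over 6 arrays), followed by Snx2 (0.996) and Gm7061 (0.988). Dand5 encodes an extracellular antagonist of Nodal, a ligand of the same superfamily, and was dim, at 5.61, 5.49 and 5.66 on Keap1_KO B, C and D, against 5.27, 5.47 and 5.24 on WT A, D and F. Snx2, a sorting nexin gene, differed by 0.35. These likenesses were picked from all genes over arrays that share 2 groups, and they are descriptions.

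The other genes of the pathway gave 68 symbols in 6 lists, of which 52 were tested. By limma, 0 of them passed the adjusted threshold and 5 had an unadjusted p under 0.05, beside 10.3% of all genes. In 5 of the 52 all Keap1_KO arrays lay above all WT arrays (9.11% of all genes) and in 4 all lay below (4.96%), and their median difference was 0.025 (0.061 over all genes). Means were higher in Keap1_KO for 27 (56.5% of all genes) and lower for 25.

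Genes of ligand release came first in the pathway. Of 14 symbols, 7 were tested, with a median difference of 0.22, and Tgfb2, Tgfb3, Ltbp1, Ltbp2, Ltbp4, Itgb6 and Thbs1 were below the intensity filter. Lrrc32, which encodes GARP, the protein that holds latent TGF-beta on the Treg surface, read 8.06, 9.61 and 8.42 on Keap1_KO B, C and D, against 8.24, 7.86 and 8.17 on WT A, D and F. Keap1_KO C was high and Keap1_KO B lay within the WT range (difference 0.61, SE 0.40, limma adjusted p = 0.533). Itgb8, the integrin subunit gene with which Treg cells release active TGF-beta, differed by 0.40 (adjusted p = 0.505) and its arrays overlapped. Furin, the protease gene of pro-TGF-beta, read 6.75, 6.72 and 6.76 on Keap1_KO B, C and D, against 6.57, 6.39 and 6.58 on WT A, D and F (difference 0.23, limma adjusted p = 0.525), so its groups did not overlap.

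Of 11 other receptor and co-receptor genes of the superfamily, 7 were tested (median 0.13). Acvr2a, an activin type II receptor gene, read 7.91, 7.53 and 8.20 on Keap1_KO B, C and D, against 8.24, 8.68 and 8.75 on WT A, D and F, a difference of -0.68 (SE 0.24, limma adjusted p = 0.476). Keap1_KO D and WT A were 0.038 apart, and the groups did not overlap. Acvr1b, the activin type I receptor gene, differed by -0.43 and its arrays overlapped. The BMP receptor genes Bmpr2 and Bmpr1a differed by 0.25 and 0.20. Of 4 further SMAD genes, Smad1, Smad5 and Smad6 were tested, all with overlapping arrays, at -0.40, -0.16 and -0.027.

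The 21 regulators of SMADs and receptors, of which 19 were tested, had a median of 0.025, with 10 higher and 9 lower means. Tgif1, a SMAD corepressor gene, had the largest difference (0.97, SE 0.35, limma adjusted p = 0.476), with Keap1_KO B and WT D overlapping. Pmepa1, a TGF-beta target whose product restrains SMAD2 and SMAD3 phosphorylation, read 7.29, 7.996 and 8.16 on Keap1_KO B, C and D, against 7.28, 6.96 and 6.72 on WT A, D and F. Its groups did not overlap, though Keap1_KO B and WT A were within 0.01 log2 units (difference 0.83, SE 0.28, limma adjusted p = 0.476). Uchl5, a deubiquitinase gene, and Strap, a gene of a receptor-binding inhibitor, differed by 0.90 and 0.82, and Usp11, another deubiquitinase gene, by 0.58, all with overlapping arrays. In 2 of the 19 all Keap1_KO arrays lay above all WT arrays (9.11% of all genes). In 2 all lay below (4.96%), namely Usp9x (-0.58, limma adjusted p = 0.476) and Usp15 (-0.20, limma adjusted p = 0.565). Among 8 tested partners of SMADs, Hdac1 (0.99), Crebbp (-0.79), Ep300 (-0.41) and Foxh1 (-0.21) overlapped, whereas Runx3, a transcription factor gene known to act with SMADs, read higher on all Keap1_KO arrays (0.63, limma adjusted p = 0.476). Of 8 genes of signalling outside the SMADs, all overlapped (median 0.049), with Rhoa at 0.76, Ppp2r1a at 0.65, Tab2 at -0.18, Ppp2r2a at -0.16 and Tab1 at 0.078.

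**Figure D4:**
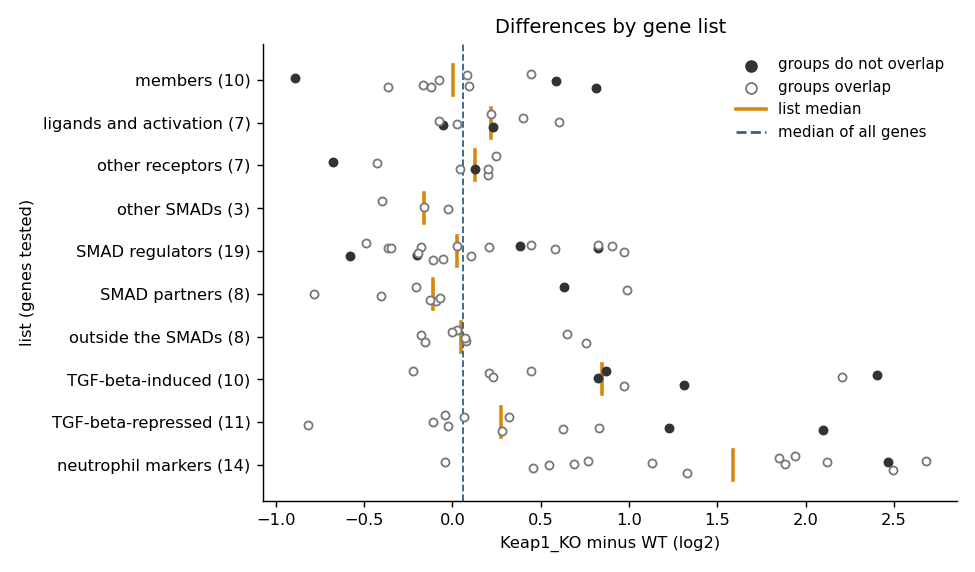
Keap1_KO minus WT difference (horizontal axis, log2) of each tested gene in the member set, in 8 pathway and target lists and among neutrophil markers (rows, number of genes tested in brackets); filled points are genes whose groups do not overlap, orange lines list medians, and the dashed line the median of all genes tested (0.061). The members centre near 0, the TGF-beta-induced list has a median of 0.85, and the neutrophil list has a higher one (1.59).

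Genes known as TGF-beta targets were set beside the pathway. Of 15 genes induced by TGF-beta, members left out, 10 were tested, 9 had a higher mean in Keap1_KO (56.5% of all genes), 4 lay higher on all Keap1_KO arrays, Itgae among them (9.11% of all genes), and 0 passed the limma adjusted threshold. Their median difference was 0.85 (0.061 over all genes). Pmepa1, Ldlrad4 and Tgif1 are also among the regulators above. The TGF-beta-induced members Smad7 (0.093) and Skil (-0.12) are not in this median. The list was chosen with the higher values of Itgae and Ccr8 on the Keap1_KO arrays known, so its median is a description. Cdkn1a, a cell cycle inhibitor gene that many signals induce, read 6.22, 7.32 and 7.27 on Keap1_KO B, C and D, against 5.75, 5.58 and 5.54 on WT A, D and F (difference 1.31, SE 0.32, limma adjusted p = 0.476). Ahr, the aryl hydrocarbon receptor gene, read 9.07, 8.94 and 9.19 on Keap1_KO B, C and D, against 8.68, 8.26 and 7.66 on WT A, D and F (0.87, adjusted p = 0.476). Ccr8, a chemokine receptor gene, differed by 2.20 with overlapping arrays. Gpr83 was the 1 tested gene of the list with a lower mean (-0.22).

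Genes known to be repressed by TGF-beta had differences in both directions. Of 12, 11 were tested, 7 with a higher mean in Keap1_KO (56.5% of all genes) and 4 with a lower one. Their median was 0.28 (0.061 over all genes), and 0 passed the limma adjusted threshold. In 2 of them all Keap1_KO arrays lay above all WT arrays (9.11% of all genes), and in 0 all lay below (4.96%). Gzmb, the gene of the cytotoxic protease granzyme B, read 9.77, 8.77 and 11.05 on Keap1_KO B, C and D, against 7.003, 8.68 and 7.61 on WT A, D and F (2.10, adjusted p = 0.476). Klrg1, a receptor gene of differentiated T cells, differed by 1.23 without overlap. Ifng (-0.82), Klf2 (0.83) and Myc (0.63) overlapped.

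Markers of other cells moved with some of these values. Neutrophil markers, 14 of 15 tested, had mean levels of 7.57 to 11.2 on the Keap1_KO arrays and 7.45 to 8.56 on the WT arrays, highest on Keap1_KO D. Their median difference was 1.59 (0.061 over all genes), with 13 of 14 higher in Keap1_KO (56.5% of all genes). Of these markers, 1 had no overlap between the groups (14.1% of all genes) and 0 passed the limma adjusted threshold (0.0%). On average they deviated by -1.06, 0.62 and 2.62 on Keap1_KO B, C and D, against -1.17, -0.070 and -0.93 on WT A, D and F. WT F, lowest in Tgfb1 and Tgfbr2, was also lowest in the mean of B cell (-1.03, 9 of 10 tested) and NK cell markers (-1.46, 8 of 10). The same held for macrophages and monocytes (-0.94, 6 of 12), CD8 T cells (-1.07, 2 of 2), dendritic cells (-0.52, 7 of 8) and platelets (-0.31, 6 of 10). Among the platelet genes, however, Itga2b (5.85) and Treml1 (5.67) were highest on WT F, and only Ppbp (5.74) was lowest there. Keap1_KO D, highest in Tgfbr2, had the highest mean in all of these lists, from 0.25 for platelets to 1.24 for NK cells. The T cell markers (7 of 8 tested) also had their lowest mean on WT F (-0.37, WT A -0.33). Their highest was on Keap1_KO D (0.41, Keap1_KO C 0.39). The SMAD regulators and the genes outside the SMADs were lowest on WT F too (-0.29 each). The ligand list was lowest on WT A (-0.16) and the other SMADs on Keap1_KO C (-0.20). Single genes did not all follow these means. Lyz2 (15.1) and Adgre1 (5.81) were highest on Keap1_KO D, whereas Csf1r (5.81) and Cd68 (8.69) were highest on WT D. Vcam1 was highest on Keap1_KO C and C1qc on WT A. The dendritic genes Bst2 (12.7), Cd209a (7.26) and Zbtb46 (5.76) were highest on Keap1_KO D. Itgax (6.92) and Flt3 (5.92) were highest on WT D, Clec9a on WT A and Siglech on Keap1_KO C. The B cell genes Ms4a1 and Cr2 and the NK cell genes Klrb1c and Klrk1 were highest on WT D. Pax5 and Ebf1 were highest on Keap1_KO B, and Eomes and Cd8b1 on Keap1_KO C. The other tested B, NK and CD8 T cell markers were highest on Keap1_KO D. Of the tested platelet genes, only Pf4 (6.54) was highest on Keap1_KO D, and Treml1 (5.25) was lowest there. Across the arrays of each group the mean levels were 6.62 to 8.01 (Keap1_KO) and 6.13 to 7.92 (WT) for B cells, 7.83 to 9.46 and 6.76 to 9.13 for NK cells, 6.89 to 7.97 and 6.15 to 7.43 for macrophages and monocytes, 6.67 to 8.38 and 6.34 to 7.79 for CD8 T cells, 6.47 to 7.13 and 6.05 to 6.68 for dendritic cells, and 6.50 to 6.88 and 6.33 to 6.72 for platelets. The macrophage genes Cd14, Fcgr1, C1qa and C1qb and the platelet gene Gp6 lay below the intensity filter. The part of these cells in the differences of Tgfb1, Tgfbr2 and the target genes was not tested.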

How the data were processed

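Expression was measured on 6 arrays, 3 Keap1_KO and 3 WT, grouped by sample titles. The authors deposited a log2 value for each transcript cluster on each array. RMA, which corrects background, normalizes between arrays and summarises probes, is named in the submitters' processing notes together with Transcriptome Analysis Console and Affymetrix Expression Console, without versions. The sources used here give no genome build. Values reached 19.93, above the 16 that a 16-bit scanner allows on the log2 scale, so an unstated rescaling affects the fold changes. The number of arrays limits the precision.

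Of 65528 clusters, 30354 carried 1 symbol, 2118 several and 33056 none in the platform annotation, which belongs to a different array model than the design text names. Symbols of 22586 clusters were looked up through Entrez identifiers in RefSeq (GRCm38.p6), and 824 names were replaced. A gene was tested when its value reached its array's median on at least 3 of 6 arrays, and the brightest cluster stood for the gene. The groups were compared with limma 3.58.1 under R 4.3.3 (lmFit, eBayes, two-sided, Benjamini-Hochberg over 16825 genes, threshold 0.05), tested on simulated data, with exact two-sided permutation tests beside it. Intervals are unadjusted 95% limma intervals.

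The members and lists were chosen with earlier results of these data known. The text names the members, Itgae, Keap1 with T cell markers as checks, up to 5 genes of each list by largest difference, and the 3 genes most like the member with the largest moderated t. Gpr83, Ldlrad4, Usp9x, Usp15, the genes given as below the intensity filter and the single markers of other cells were named after their values were seen. Alternatives were no intensity filter, repeated quantile normalization, centred arrays, eBayes with trend and robust, array weights, the mean of a gene's clusters, unchanged symbols and leaving out each array.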

Additional observations from a re-analysis of the deposited data

How the results depend on the processing

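No paired analysis was possible because the groups share only 1 replicate letter, D. Of 142 differences of members and Itgae under the alternatives, 130 kept their direction and their side of the threshold. The count of genes past the limma adjusted threshold, 0 in the fit reported, was 1 with trend and robust eBayes and 1880 with array weights (5897 at an unadjusted p under 0.05, 1733 in the fit reported), and 0 to 569 on leaving out an array, 569 being without Keap1_KO B. With array weights 1 member passed, Tgfbr3 (-1.26, adjusted p = 0.0414), Itgae passed (2.72, 0.0408), Smad7 (-0.036) and Ski (-0.25) turned sign, and 3 members had a higher mean. Centring each array on its median moved the median difference of all genes to 0.17 and turned Smad4 to 0.037, which lies below that median. Leaving out an array gave ranges of -0.42 to 0.072 for Tgfbr1, -0.0018 to 0.19 for Smad7, -0.034 to 0.31 for Ski, -0.27 to 0.019 for Skil and 2.11 to 2.75 for Itgae, which passed without Keap1_KO B (adjusted p = 0.0344), and between 3 and 6 members had a higher mean (3 without WT D). The adjusted p ranged from 0.0806 to 0.9 for Tgfb1 and from 0.058 to 0.9 for Smad3 over 13 alternatives, and from 0.0344 to 0.9 for Itgae over 12. The cause of these changes was not tested. The median of the TGF-beta-induced list, in an alternative added after seeing the data, was 0.65 to 0.98 on leaving out an array.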

Other observations

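Smad3 and Smad2 had differences of opposite sign, and their ratio, chosen after the values were seen, does not depend on a shift of a whole array. The log2 ratio of Smad3 to Smad2, relative to its WT mean, stood at 0.84, 0.97 and 1.04 on Keap1_KO B, C and D, against -0.13, 0.098 and 0.029 on WT A, D and F. The difference was 0.95 (SD 0.10 in Keap1_KO and 0.12 in WT, n = 3 each), a 1.94-fold higher ratio in Keap1_KO. It was 0.99 after repeated quantile normalization, 1.06 with array weights and 0.89 to 1.01 on leaving out an array, all added after seeing the data. Since the pair was picked for its opposite signs, the ratio restates those values, and no test of it is reported.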
